A study of Mus musculus with 8 samples.

Results

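The question here was whether digoxin acts on the same genes, and by as much, in T cells with and without the nuclear receptor RORγt. It was put to each gene as 1 number, the digoxin effect in wildtype cells minus the digoxin effect in RORγt-deficient cells. All 8 arrays of the series enter that number, and it was computed for 18193 genes. Naive CD4 T cells of C57BL/6 strain mice were isolated by flow cytometry and grown on antibodies against CD3 and CD28, in a medium based on RPMI, for 48 h under conditions that favour Th17 differentiation. The 4 groups were wildtype cells with DMSO, wildtype cells with digoxin, RORγt-deficient cells with DMSO and RORγt-deficient cells with digoxin, each with 2 arrays. Neither the dose and timing of digoxin nor the allele behind the deficiency is stated in the labels. The titles present the 2 arrays of each group as biological replicates and do not say whether separate animals or cultures gave them. Each p-value thus measures spread between arrays that may be technical in part.

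RORγt is the nuclear receptor that directs the Th17 programme, in which CD4 T cells make interleukin 17. Digoxin is a cardiac glycoside. It inhibits the Na,K-ATPase, the pump that keeps sodium out of cells, and it has also been described as an antagonist of RORγt. An effect that needs RORγt would be absent in cells without the receptor, and one that needs it in part would be smaller. An effect through another route could be present in both genotypes. It could also be smaller in deficient cells, where the deficiency had already moved the gene. A smaller effect in deficient cells thus cannot tell these apart. In bulk RNA, fewer cells of a type and less RNA per cell cannot be told apart.

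Every value below is on the log2 scale and is given relative to the average of wildtype DMSO, which is therefore 0 for every gene, and absolute levels are lost. A negative difference of the digoxin effects means that digoxin lowered the gene more, or raised it less, in wildtype cells than in deficient cells. The median over all genes was -0.012, and the SD over genes was 0.187, against a median standard error of 0.178 for 1 gene. Paired within their group, the arrays differed with an SD over genes of 0.182 in wildtype DMSO and of 0.211 to 0.236 elsewhere. The gene of RORγt itself was not analysed here and offers no check of the genotypes.

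The promoters of 3 genes are shown first, Il17a because digoxin lowered it in both genotypes and Iyd and Ppp1r14c because they are neighbours with a like pattern. Il17a encodes the signature Th17 cytokine and carried the largest digoxin effect in deficient cells. Iyd, which encodes the iodotyrosine deiodinase that recovers iodide, had the largest difference between the genotypes. Ppp1r14c, which encodes an inhibitor of protein phosphatase 1, had the second smallest p among the negative differences, and in RefSeq it is the immediate protein-coding neighbour of Iyd on chromosome 10. Each line gives the 250 bases before the RefSeq start in GRCm38.p6, 5′ to 3′ on the gene's strand. They lie on the plus strand at chr1:20730655-20730904 for Il17a, chr10:3540024-3540273 for Iyd and chr10:3365900-3366149 for Ppp1r14c. Capitals mark AGGTCA or its reverse complement TGACCT, the core of the element that ROR receptors bind.

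Il17a: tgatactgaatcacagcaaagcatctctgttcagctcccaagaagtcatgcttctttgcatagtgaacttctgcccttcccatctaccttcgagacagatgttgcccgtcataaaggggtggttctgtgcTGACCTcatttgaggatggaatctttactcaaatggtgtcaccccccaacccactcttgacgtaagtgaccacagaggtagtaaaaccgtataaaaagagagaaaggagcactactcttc
Iyd: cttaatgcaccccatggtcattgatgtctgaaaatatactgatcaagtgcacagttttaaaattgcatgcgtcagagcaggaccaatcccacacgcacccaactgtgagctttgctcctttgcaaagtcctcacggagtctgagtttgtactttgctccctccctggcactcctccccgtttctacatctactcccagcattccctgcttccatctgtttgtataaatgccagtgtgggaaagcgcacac
Ppp1r14c: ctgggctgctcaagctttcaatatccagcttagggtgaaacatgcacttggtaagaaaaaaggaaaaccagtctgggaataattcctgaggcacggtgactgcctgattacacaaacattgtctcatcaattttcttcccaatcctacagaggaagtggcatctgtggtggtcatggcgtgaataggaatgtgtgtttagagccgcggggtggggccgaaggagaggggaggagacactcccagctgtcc

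The Il17a promoter held 1 such match, beginning at position -120 from the start, and the other 2 windows held none. A match to these letters is a description and no shown binding site. AGGTCA or TGACCT occurred in 14.0% of 32851 RefSeq promoter windows of this length and in 14.6% of the 14452 tested genes with a promoter in the table. Of the 24 genes with the smallest p for the difference of the digoxin effects, 19 had a promoter in the table, and 3 of these (15.8%) held a match, namely Adh4, Nebl and Tafa3.

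Among the genes that digoxin lowered in wildtype cells, the effect differed most between genotypes for Iyd and Ppp1r14c, and among those it raised for Plac8, Il10 and Klrd1, by p. In these genes the wildtype digoxin value lay nearer to deficient DMSO than to wildtype DMSO, and the effect in deficient cells was between 0.01 and 0.50 in size. Choosing genes by the p of the difference favours both of these traits, so they are a description. No gene passed the test of the difference itself. With limma and Benjamini-Hochberg adjustment over all genes, 0 of 18193 genes (0%) had an adjusted p under 0.05. At an unadjusted p under 0.05 there were 562 genes (3.09%), 257 with a positive difference (1.41%) and 305 with a negative one (1.68%). The difference exceeded 1 in size in 9 genes: Iyd, Ppp1r14c, Hspa1a, Hspa1b, Prr29, Nebl, Klrd1, Il10 and Plac8.

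Iyd had the largest difference. Its arrays read -0.17 and 0.17 with DMSO and -2.59 and -3.09 with digoxin in wildtype cells, and -3.29 and -3.64 with DMSO and -3.80 and -3.83 with digoxin in deficient cells. All 4 groups were apart, in that order from high to low, but the step from wildtype DMSO to wildtype digoxin was far larger than the step between the deficient groups. The lowest array level of Iyd before centring lay between 4 and 8, and the deficient DMSO arrays were already low. A further fall could be read too small there, which was not tested. Digoxin lowered Iyd 7.16-fold in wildtype cells (-2.84 ± 0.19, SE, n = 2 arrays per group, limma adjusted p = 0.000215). In deficient cells the effect was -0.35 ± 0.19 (95% interval -0.76 to 0.07). The difference was -2.49 ± 0.26 (95% interval -3.08 to -1.91), at an unadjusted p of 2.86e-06 and an adjusted p of 0.0521. Over 15 alternative analyses the difference ranged from -3.22 to -2.25 and its adjusted p from 0.0162 to 1. It was called in 3 of them, without wildtype digoxin replicate 1 (adjusted p = 0.0162), with array weights (0.0462) and after quantile normalisation (0.0459).

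Ppp1r14c showed the same order of groups. It read -0.12 and 0.12 with DMSO and -1.34 and -1.58 with digoxin in wildtype cells, and -1.97 and -2.21 with DMSO and -2.30 and -2.18 with digoxin in deficient cells. The deficient groups overlapped, and every other pair of groups was apart. The lowest array level of Ppp1r14c before centring also lay between 4 and 8, so the limit given for Iyd applies to it. Digoxin lowered the gene 2.75-fold in wildtype cells (-1.46 ± 0.14, adjusted p = 0.00359), its effect in deficient cells was -0.15 ± 0.14, and the difference was -1.31 ± 0.20 (adjusted p = 0.221). The measured genes on either side of this pair gave no sign of the pattern, but both were dim. Their lowest array level before centring was in the dimmest range, below that of Iyd and Ppp1r14c. A fall could be missed there, so these adjacent genes cannot show whether the pattern stops at the pair. H60c, a ligand of the receptor NKG2D that lies next to Ppp1r14c, had a difference of 0.24 ± 0.16, and Plekhg1, next to Iyd, had 0.15 ± 0.15. Brighter genes lay past Plekhg1, with differences of -0.21 ± 0.15 (Mthfd1l), -0.02 ± 0.19 (Akap12), -0.20 ± 0.16 (Zbtb2) and -0.01 ± 0.23 (Rmnd1). None of them had an unadjusted p under 0.05.

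Plac8, the gene of a small protein rich in cysteine, led the positive differences. It read -0.10 and 0.10 with DMSO and 1.98 and 1.78 with digoxin in wildtype cells, and 1.89 and 1.76 with DMSO and 2.30 and 2.36 with digoxin in deficient cells. The wildtype digoxin and deficient DMSO arrays overlapped, and the deficient digoxin arrays lay above both. Digoxin raised Plac8 3.67-fold in wildtype cells (1.88 ± 0.12, adjusted p = 0.000215). The effect in deficient cells was 0.50 ± 0.12, a 1.42-fold higher value at an unadjusted limma p of 0.002 that did not hold after adjustment. The difference was 1.37 ± 0.17 (95% interval 0.99 to 1.75, adjusted p = 0.116).

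Il10, the gene of an immunoregulatory cytokine, had the digoxin effect nearest to 0 in deficient cells among the genes called in wildtype cells. Its arrays read 0.03 and -0.03 with DMSO and 1.46 and 1.20 with digoxin in wildtype cells, and 1.63 and 1.26 with DMSO and 1.46 and 1.41 with digoxin in deficient cells. The last 3 groups overlapped one another, and wildtype DMSO stood alone below them. Digoxin raised Il10 2.51-fold in wildtype cells (1.33 ± 0.14, adjusted p = 0.00479), the effect in deficient cells was -0.01 ± 0.14 (95% interval -0.33 to 0.30), and the difference was 1.34 ± 0.20 (adjusted p = 0.221).

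Klrd1, which encodes CD94, a partner of NK cell lectin-like receptors, followed Plac8. It read -0.06 and 0.06 with DMSO and 1.36 and 1.36 with digoxin in wildtype cells, and 1.46 and 1.29 with DMSO and 1.58 and 1.63 with digoxin in deficient cells. The wildtype digoxin arrays lay within the range of deficient DMSO, and the deficient digoxin arrays lay above both. Its effects were 1.36 ± 0.11 in wildtype cells (adjusted p = 0.000991) and 0.23 ± 0.11 in deficient cells, with a difference of 1.13 ± 0.15 (adjusted p = 0.15). Ifitm1, an interferon-induced membrane protein gene, read 0.00 and 0.00, then 1.22 and 1.11, then 1.08 and 0.85, then 1.19 and 1.13 in the same order of groups. Its 3 groups other than wildtype DMSO lay close together, and the difference was 0.96 ± 0.16 (adjusted p = 0.363).

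Serpinb5, which encodes the serpin maspin, had a different shape. It read -0.05 and 0.05 with DMSO and 0.97 and 0.99 with digoxin in wildtype cells, and 0.38 and 0.30 with DMSO and 0.44 and 0.35 with digoxin in deficient cells. Wildtype digoxin stood highest, above both deficient groups, which overlapped. Digoxin raised Serpinb5 1.97-fold in wildtype cells (0.98 ± 0.10, adjusted p = 0.00479), and the effect in deficient cells was 0.06 ± 0.10. The difference was 0.92 ± 0.15 (adjusted p = 0.288), and the gene's other 3 probe sets gave differences of the same sign.

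**Figure D1:**
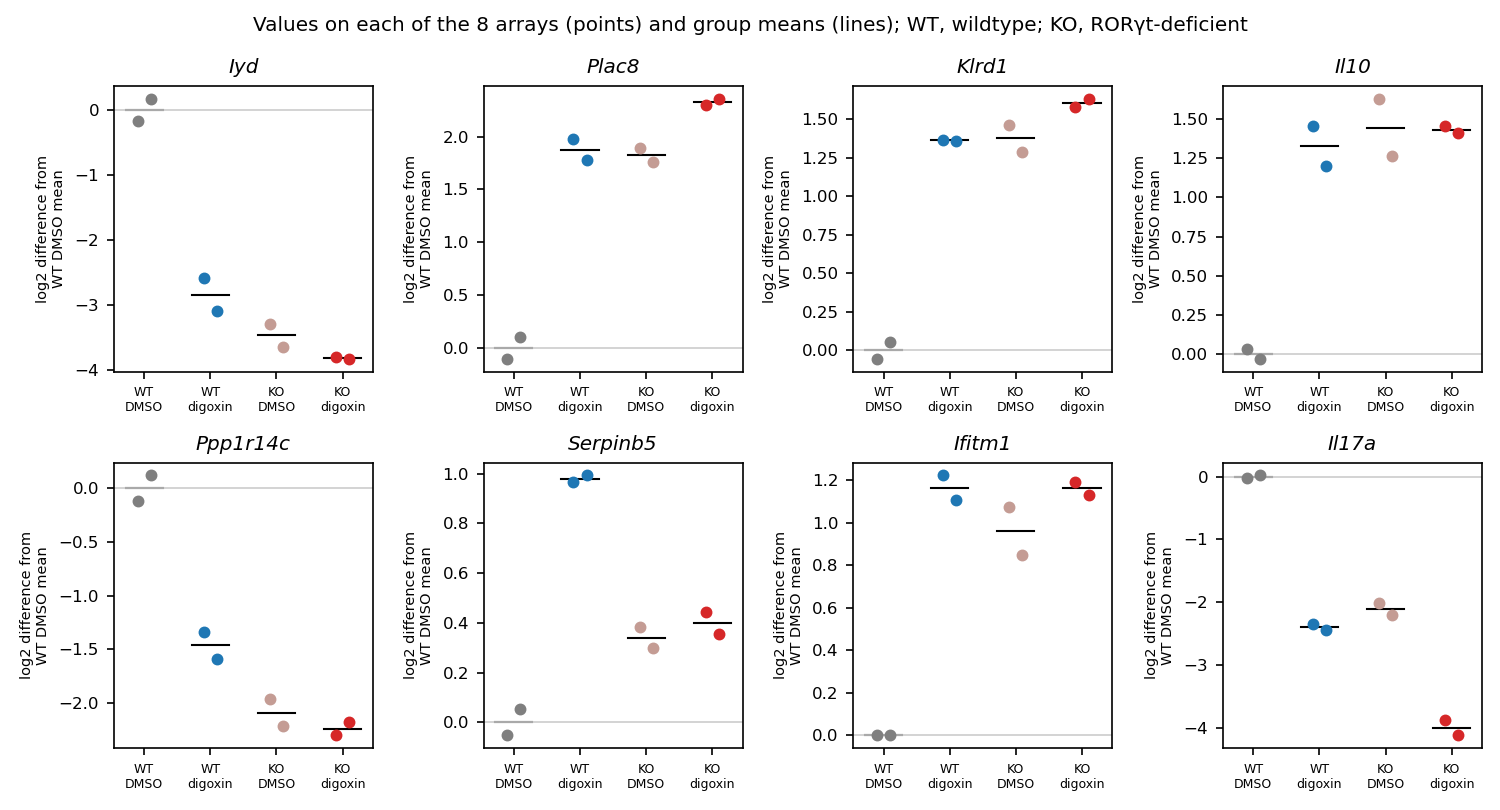
Values on each array for 8 genes, as log2 differences from the wildtype DMSO mean; points are arrays, black lines are means of 2 arrays, WT is wildtype and KO is RORγt-deficient. In Iyd, Plac8, Klrd1, Il10, Ppp1r14c and Ifitm1 the step from WT DMSO to WT digoxin is much larger than the step between the KO groups, in Serpinb5 WT digoxin stands highest, and in Il17a both steps are large.

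Il17a departed from this pattern. Its arrays read -0.02 and 0.02 with DMSO and -2.35 and -2.44 with digoxin in wildtype cells, and -2.01 and -2.21 with DMSO and -3.87 and -4.12 with digoxin in deficient cells. Wildtype digoxin and deficient DMSO lay near each other without overlap, and deficient digoxin lay far below both. Digoxin lowered Il17a 5.26-fold in wildtype cells (-2.39 ± 0.12, limma adjusted p = 6.5e-05) and 3.69-fold in deficient cells (-1.88 ± 0.12, adjusted p = 0.000634). The difference was -0.51 ± 0.17 (95% interval -0.90 to -0.12, unadjusted p = 0.0151, adjusted p = 0.9999). After quantile normalisation of the values relative to wildtype DMSO the difference was -1.40, and no gene was called in deficient cells. Those values had an SD over genes of 0.091 in wildtype DMSO and of 0.172 to 0.279 on the other arrays. Forcing 1 distribution on them is thus no plain check of the difference. Il17a was the 1 gene called for digoxin in deficient cells (0.0055% of 18193), where 639 genes (3.51%) had an unadjusted p under 0.05.

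Gap43, which encodes a growth-associated protein best known in neurons, was nearest to Il17a in this respect. It read -0.04 and 0.04 with DMSO and -1.02 and -1.26 with digoxin in wildtype cells, and -0.99 and -1.24 with DMSO and -1.98 and -1.99 with digoxin in deficient cells. Wildtype digoxin and deficient DMSO overlapped, and deficient digoxin was lower than both. The effects were -1.14 ± 0.13 in wildtype cells (adjusted p = 0.0064) and -0.87 ± 0.13 in deficient cells (adjusted p = 0.417), with a difference of -0.27 (95% interval -0.67 to 0.13).

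Digoxin in wildtype cells called 22 of 18193 genes (0.121%), 13 higher (0.0715%) and 9 lower (0.0495%), and 1272 genes (6.99%) had an unadjusted p under 0.05. These 22 genes were read in the deficient cells, whose arrays took no part in the wildtype values, although they share in limma's estimate of the spread. In deficient cells 21 of the 22 kept the wildtype direction, 11 of these at an unadjusted p under 0.05, and 1, Il17a, was called. The DMSO and digoxin arrays of deficient cells did not overlap for 18 of the 22, against 28.4% of all genes. The exception in direction was Il10, at -0.01. Leaving out each deficient array in turn, 21 to 22 kept the direction.

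Before centring, the lowest array level lay between 4 and 8 for 19 of the 22 genes and at 8 or above for Igfbp7, Ecm1 and Ramp1. The sizes differed more than the directions. The median effect, signed by the wildtype direction, was 1.18 in wildtype cells and 0.26 in deficient cells, where it ranged from 0.24 to 0.31 when each deficient array was left out. Because the genes were chosen by their wildtype effect, that effect is inflated by the choice and the comparison of sizes is a description. The count of 22 also depended on single arrays. It was 6 without wildtype DMSO replicate 1, 7 without wildtype DMSO replicate 2, 12 without wildtype digoxin replicate 2, 14 without either deficient digoxin array and 4 after quantile normalisation.

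The 13 risers had a median effect of 1.00 in wildtype cells and 0.24 in deficient cells, where they ranged from -0.01 to 0.52, with 6 at an unadjusted p under 0.05. Moxd1, a monooxygenase gene related to dopamine beta-hydroxylase, had the largest effect of the 13 in deficient cells. It read -0.06 and 0.06, then 1.57 and 1.15 in wildtype cells, and 0.76 and 0.75, then 1.25 and 1.28 in deficient cells, each time DMSO before digoxin. Its groups were apart within each genotype, and its effects were 1.36 ± 0.14 and 0.52 ± 0.14. Gpr15, a receptor that guides T cells to the gut, had effects of 1.21 ± 0.12 and 0.37 ± 0.12, and Tafa3, a secreted chemokine-like factor gene, had 1.00 ± 0.10 and 0.27 ± 0.10.

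The other risers included genes of cytotoxic granules and of costimulation. Gzmb, which encodes granzyme B, read 0.03 and -0.03 with DMSO and 0.89 and 0.78 with digoxin in wildtype cells, and 1.02 and 1.09 with DMSO and 1.38 and 1.21 with digoxin in deficient cells. Its groups were ordered without overlap, and its effects were 0.83 ± 0.11 and 0.24 ± 0.11. Nkg7, a granule membrane protein gene, had effects of 0.82 ± 0.11 and 0.24 ± 0.11. Cd86, which encodes a costimulatory ligand, had effects of 0.78 ± 0.10 and 0.23 ± 0.10, and Slfn1, of the Schlafen family of growth regulators in T cells, had 0.93 ± 0.13 and 0.25 ± 0.13. Ecm1, which encodes a secreted matrix protein, had 0.71 ± 0.10 and 0.14 ± 0.10.

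The 9 fallers had a median effect of -1.46 in wildtype cells and -0.34 in deficient cells, where they ranged from -1.88 to -0.15, with 5 at an unadjusted p under 0.05. Igfbp7, whose product is secreted and binds insulin-like growth factors, read -0.01 and 0.01 with DMSO and -1.39 and -1.62 with digoxin in wildtype cells, and -1.09 and -1.09 with DMSO and -1.60 and -1.86 with digoxin in deficient cells. Digoxin arrays were below DMSO arrays in both genotypes, with effects of -1.50 ± 0.12 and -0.64 ± 0.12. The difference of -0.86 ± 0.18 was not shared by all its probe sets, 1 of which gave 0.20. Nupr1, a stress-induced nuclear protein gene, had effects of -1.19 ± 0.14 and -0.34 ± 0.14. Csf2, which encodes the cytokine GM-CSF, had -0.84 ± 0.12 and -0.26 ± 0.12, and Ramp1, whose product is part of the CGRP receptor, had -0.80 ± 0.10 and -0.32 ± 0.10. For Ramp1, 1 of the other 2 probe sets gave a difference of 0.08 in place of -0.48.

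Hspa1b, an inducible Hsp70 gene, had effects of -1.62 ± 0.24 and -0.33 ± 0.24. Its wildtype DMSO arrays, at 0.37 and -0.37, lay further apart than those of any other gene called for digoxin in wildtype cells. Hspa1a, its near-identical neighbour, was not called (-1.46 ± 0.26 and -0.11 ± 0.26), and probes may not separate the pair.

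**Figure D2:**
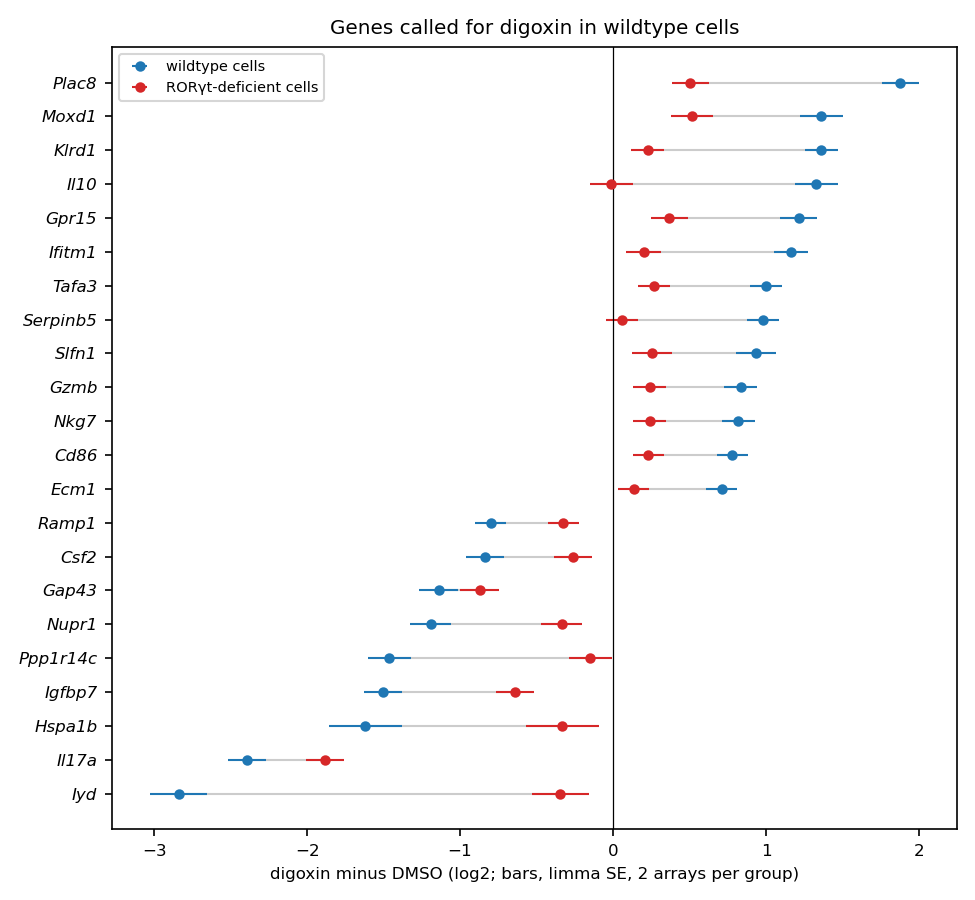
Digoxin minus DMSO, log2, in wildtype cells (blue) and RORγt-deficient cells (red) for the 22 genes called in wildtype cells; bars are limma standard errors with 2 arrays per group, and grey lines join the values of a gene. The deficient value lies nearer to 0 in all 22 genes, which the choice by the wildtype value favours, and in deficient cells Il17a (-1.88) and Gap43 (-0.87) have the lowest values.

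Across all genes, the effects in the 2 genotypes, which share no arrays, correlated weakly (Pearson r = 0.276 and Spearman rho = 0.245 over 18193 genes, which are not independent). Among the 3793 genes whose lowest array level was 8 or above before centring, r was 0.458. The SD over genes was 0.173 for the wildtype effect and 0.135 for the deficient effect, against a median standard error of 0.126 for 1 gene in either. Such noise lowers the correlation, so its size does not measure how far the genotypes differ. The effect exceeded 1 in size in 20 genes in wildtype cells and in 1 gene in deficient cells. The wildtype effect was the larger in size in 386 of the 562 genes at an unadjusted p under 0.05 for the difference (68.7%), and in 57.1% of all genes. In 442 of the 562 (78.6%) the effects had opposite signs, against 40.8% of all genes. That share follows in part from choosing genes by a large difference.

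**Figure D3:**
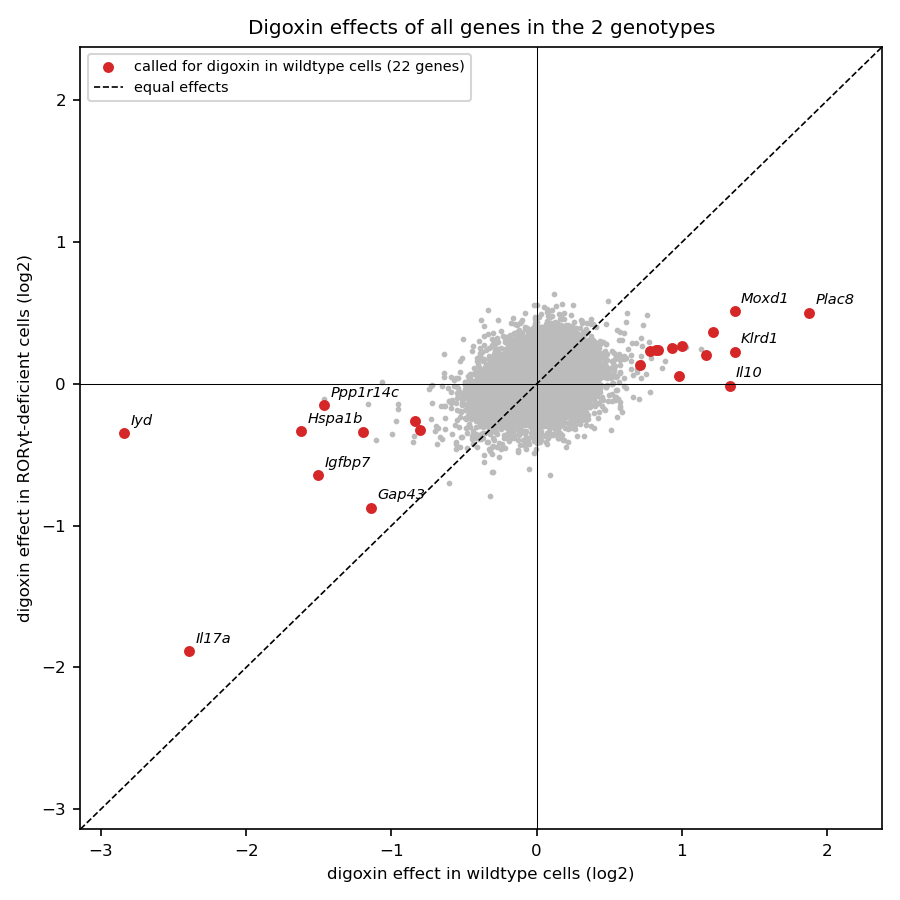
Digoxin effect in RORγt-deficient cells (vertical, log2) against the effect in wildtype cells (horizontal, log2) for 18193 genes, each 1 point; red marks the 22 genes called in wildtype cells, and the dashed line marks equal effects. The red points spread from -2.84 to 1.88 horizontally, and all but Il17a and Gap43 lie between -0.64 and 0.52 vertically.

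The same number can be read as the genotype gap in DMSO minus the gap under digoxin. For Iyd the gap was -3.47 ± 0.19 in DMSO and -0.97 ± 0.19 under digoxin, for Plac8 it was 1.82 ± 0.12 and 0.45 ± 0.12, and for Il17a -2.11 ± 0.12 and -1.60 ± 0.12. For Serpinb5 the gap turned from 0.34 ± 0.10 in DMSO to -0.58 ± 0.10 under digoxin. RORγt deficiency called 191 genes in DMSO (1.05%), 51 higher (0.28%) and 140 lower (0.77%), and 1 gene, Il17a, under digoxin (0.0055%), where 1003 (5.51%) had an unadjusted p under 0.05.

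Of the 191 genes, 186 kept their direction under digoxin, and 149 of these had an unadjusted p under 0.05. Over all genes, 5.51% had such a p under digoxin, in either direction. The share of all genes that kept their direction was not computed. The median gap, signed by direction in DMSO, was 0.83 in DMSO and 0.46 under digoxin, and the first of these values is inflated by the choice. The digoxin arrays give no part of the gap in DMSO, but they share in limma's estimate of the spread behind the calls. The count of 191 was 17 without wildtype DMSO replicate 2, 28 without deficient DMSO replicate 2, 47 without wildtype DMSO replicate 1, 56 without deficient DMSO replicate 1, 114 without either deficient digoxin array and 3 after quantile normalisation. The wildtype DMSO arrays enter the wildtype digoxin effect, the gap in DMSO and the difference of the digoxin effects with the same sign. Their part in the patterns these numbers share was not tested.

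The 24 genes with the smallest p, 12 in each direction, were chosen for that p, so their sizes run high. All 12 with a positive difference had a positive wildtype effect, and all 12 with a negative difference a negative one. The choice by the difference favours these signs. In deficient cells the effect had the opposite sign in 2 of the first 12 and in 6 of the second 12. Of all genes, 40.8% had effects of opposite sign in the 2 genotypes. The highest deficient value among these 6 was that of Zfp418, a zinc finger gene, at -0.36 ± 0.14 in wildtype cells and 0.41 ± 0.14 in deficient cells. Brd7, which encodes a subunit of a chromatin remodelling complex, stood at -0.37 ± 0.13 and 0.34 ± 0.13, and another of its probe sets gave a difference of -0.20 in place of -0.70. Zfp418 and Brd7 had a lowest array level between 2 and 4 before centring, the dimmest range.

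Adh4, an alcohol dehydrogenase gene, stood at -0.51 ± 0.12 in wildtype cells and 0.32 ± 0.12 in deficient cells. Pcbp3, which encodes an RNA-binding protein, stood at -0.36 ± 0.11 and 0.28 ± 0.11, and its other probe set gave a difference of -0.06 in place of -0.64, with a deficient effect of -0.10. Pif1, a DNA helicase gene, stood at -0.52 ± 0.12 and 0.19 ± 0.12, and its other probe sets gave differences of -0.10 and -0.42 in place of -0.70. Prr29 stood at -1.06 ± 0.17 and 0.01 ± 0.17. Arc, an immediate early gene best known in neurons, was the reverse case among the positive differences. It read -0.02 and 0.02, then 0.11 and 0.26 in wildtype cells, and 0.12 and 0.11, then -0.22 and -0.35 in deficient cells. Its effects were 0.18 ± 0.11 and -0.40 ± 0.11, and its lowest array level was in the same dimmest range.

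Avpi1 and Nebl completed the negative set. Avpi1 had effects of -0.74 ± 0.12 and -0.03 ± 0.12. Nebl, which encodes the actin-binding protein nebulette, had -1.16 ± 0.18 and -0.14 ± 0.18. In the positive set, Gbp2, an interferon-induced GTPase gene, had 0.75 ± 0.11 and 0.07 ± 0.11, with a difference of 0.68 ± 0.16 and of 0.83 at its other probe set. None of these genes had an adjusted p for the difference under 0.9, and their unadjusted p ran from 0.000633 for Adh4 to 0.00343 for Arc.

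Among the T helper genes, 13 of the listed members were measured, and Il10, Il17a and Il2 had an unadjusted p under 0.05 for the difference (3.09% of all genes). Il2, the gene of the T cell growth factor, read -0.02 and 0.02 with DMSO and -0.55 and -0.72 with digoxin in wildtype cells, and -0.49 and -0.51 with DMSO and -0.63 and -0.68 with digoxin in deficient cells. Digoxin arrays were lower in both genotypes, with a difference of -0.48 ± 0.15. Ccr6, the chemokine receptor gene of Th17 cells, had effects of -0.85 ± 0.16 in wildtype cells (adjusted p = 0.121) and -0.41 ± 0.16 in deficient cells, and a difference of -0.45 (95% interval -0.95 to 0.06). Its ligand gene Ccl20 had a difference of -0.12 (95% interval -0.58 to 0.33).

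The regulators of other T helper fates had differences whose intervals held 0. Tbx21, the Th1 regulator gene, stood at 0.18 (95% interval -0.14 to 0.49), Gata3, that of Th2 cells, at 0.16 (-0.28 to 0.60), and Foxp3, that of regulatory T cells, at 0.08 (-0.40 to 0.57). Rora, which encodes a receptor related to RORγt, stood at 0.11 (-0.32 to 0.54). The cytokine genes Il21 (0.02, -0.37 to 0.41), Il4 (0.05, -0.32 to 0.42) and Ifng (-0.08, -0.67 to 0.51) and the receptor gene Il1r1 (-0.29, -0.63 to 0.06) had intervals that held 0 as well. These intervals are wide enough to hold moderate differences, so equal responses were not shown.

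Over the wider list of Th17 effectors and receptors, 1 of 21 measured members had a positive and 3 a negative difference at an unadjusted p under 0.05. The shares of all genes were 1.41% and 1.68%, and the list median was -0.03. Furin, which encodes a proprotein convertase, read -0.01 and 0.01, then -0.96 and -1.26 in wildtype cells, and -0.73 and -1.27, then -1.41 and -1.37 in deficient cells. The difference for Furin was -0.71 ± 0.24, and that of Csf2 -0.58 ± 0.17. Il24, an interleukin 10 family cytokine gene, stood at 0.41 ± 0.16. At the probe sets used, none of the 16 Th17 transcription factor genes had an unadjusted p under 0.05 for the difference. Other probe sets of Rora gave from -0.131 to 0.425, the highest at an unadjusted limma p of 0.0279. Those of Ikzf3 gave -0.003 and 0.362, against -0.278 at the probe set used. The higher of these had an unadjusted limma p of 0.0298 and was in the dimmest range.

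Cell division genes of the G2/M list had negative differences in all 21 measured members, with a median of -0.32, against -0.012 over all genes and 47.1% of all genes positive. The median digoxin effect of the list was -0.25 in wildtype cells and 0.03 in deficient cells. In the genotype gap the list median was -0.89 in DMSO and -0.60 under digoxin. No member was called, and 3 of 21 had an unadjusted p under 0.05, Hmmr, Cenpe and Cdc20, against 1.68% of all genes in this direction. Genes of this list are transcribed together in dividing cells, so its members are not independent results.

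Hmmr, which encodes a spindle protein that is also a hyaluronan receptor, read -0.17 and 0.17 with DMSO and -0.37 and -0.68 with digoxin in wildtype cells, and -1.05 and -1.15 with DMSO and -0.86 and -1.02 with digoxin in deficient cells. Deficient arrays were the lowest in either treatment. Its difference was -0.69 ± 0.21, and its other probe sets gave -0.41, -0.19, -0.08 and -0.03. Cenpe, a kinetochore motor gene, had a difference of -0.44 ± 0.15, Cdc20, an activator gene of the anaphase-promoting complex, -0.37 ± 0.15, and Mki67, the gene of the proliferation marker Ki-67, -0.43 ± 0.19. Over the alternatives the list median ran from -0.39 without wildtype DMSO replicate 1 to -0.22 without wildtype digoxin replicate 2, and 18 to 21 members were negative. DNA replication genes had a list median of -0.12, with 17 of 20 negative and none at an unadjusted p under 0.05. Of all 18193 genes, 9622 were negative. Without wildtype digoxin replicate 2 that median was -0.02, and without wildtype digoxin replicate 1 it was -0.25, with 11 to 19 members negative over the alternatives.

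Targets of ATF4, the transcription factor of the amino acid stress response, had a median difference of -0.26 over 24 members, 21 of them negative, where 9622 of all 18193 genes were negative. Of the members, 4 had an unadjusted p under 0.05, against 1.68% of all genes in this direction, Nupr1 (-0.86 ± 0.19), Chac1 (-0.64 ± 0.18), Trib3 (-0.49 ± 0.16, and -0.21 at its other probe set) and Atf5 (-0.44 ± 0.19). Chac1, which encodes an enzyme that breaks down glutathione, read -0.03 and 0.03 with DMSO and -0.69 and -0.49 with digoxin in wildtype cells, and -1.03 and -0.76 with DMSO and -0.75 and -0.95 with digoxin in deficient cells. The deficient groups overlapped, and wildtype digoxin lay between them and wildtype DMSO. The list's median digoxin effect was -0.24 in wildtype cells and -0.01 in deficient cells, and Nupr1 was its 1 called member. Over the alternatives the median difference ran from -0.30 to -0.20.

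In the circadian clock list the median was -0.11, with 13 of 17 members negative and 4 at an unadjusted p under 0.05 in this direction (1.68% of all genes). Of all 18193 genes, 9622 were negative. The list median ran from -0.09 with median centring to -0.18 without wildtype digoxin replicate 2. Arntl, which encodes the core activator BMAL1, read 0.01 and -0.01, then -0.30 and -0.13 in wildtype cells, and -0.27 and -0.11, then 0.09 and 0.20 in deficient cells. Digoxin arrays were thus below DMSO arrays in wildtype cells and above them in deficient cells, with a difference of -0.55 ± 0.16. Its other probe set gave a difference of -0.62 from effects of -0.64 in wildtype cells and -0.02 in deficient cells, so the higher value in deficient cells was not shared. The repressor genes Per1 (-0.51 ± 0.21), Nr1d1 (-0.43 ± 0.18) and Nr1d2 (-0.40 ± 0.16) had the other small p-values. Nr1d1 and Nr1d2 encode nuclear receptors that bind the same DNA element as ROR proteins.

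Genes of NK cell receptors and cytotoxic granules had the most positive members at an unadjusted p under 0.05, 5 of 18, against 1.41% of all genes, with a list median of 0.13. Klrd1, Klrc1, Klrk1, Gzmb and Nkg7 were these 5. Over the whole list 13 differences were positive and 5 negative, where 47.1% of all genes were positive. The lowest was that of Klrc2 (-0.32), which lies between Klrk1 and Klrc1. Klrk1, which encodes NKG2D and is the direct protein-coding neighbour of Klrd1 on chromosome 6, read -0.12 and 0.12 with DMSO and 1.28 and 0.77 with digoxin in wildtype cells, and 0.99 and 1.13 with DMSO and 1.35 and 1.28 with digoxin in deficient cells. Its difference was 0.77 ± 0.23. Klrc1, which encodes NKG2A, the partner of CD94, had a difference of 0.84, from effects of 0.78 and -0.06, and is named outside the fixed rule after its values were seen. The list median ran from 0.03 without deficient DMSO replicate 2 to 0.30 without deficient DMSO replicate 1.

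Of the interferon-stimulated genes, 3 of 22 had a positive and 0 a negative difference at an unadjusted p under 0.05 (1.41% and 1.68% of all genes). The list median was 0.10, and it was 0.06 and 0.15 when either deficient digoxin array was left out. The 3 were Ifitm1, Gbp2 and Isg20, an exonuclease gene (0.42 ± 0.18). Of 12 naive T cell genes, Igfbp4 (0.42 ± 0.16) and the lymph node homing receptor gene Ccr7 (0.36 ± 0.14) had positive differences at an unadjusted p under 0.05. Of the 12 genes 9 were positive, against 47.1% of all genes. The other 5 probe sets of Igfbp4 gave smaller differences, from 0.11 to 0.26. Ccr7 read 0.05 and -0.05 with DMSO and 0.21 and 0.21 with digoxin in wildtype cells, and 0.57 and 0.59 with DMSO and 0.42 and 0.44 with digoxin in deficient cells, so that with digoxin it was higher in wildtype cells and lower in deficient cells, and the gap was narrower.

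Of all genes, 1.41% had a positive difference at this threshold. Further such members were Nt5e, which encodes the ectonucleotidase CD73 (0.35 ± 0.14), in the regulatory T cell list and Il12rb2, an interleukin 12 receptor subunit gene (0.50 ± 0.18), in the Th1 list. Slfn1 (0.68 ± 0.19) was the 1 of 8 Schlafen genes, and its other probe set gave -0.03. Fdft1, the squalene synthase gene (0.54 ± 0.18), was the 1 of 18 cholesterol and fatty acid synthesis genes, and its other 3 probe sets gave 0.10, 0.00 and -0.12. Id1, a target of TGF-β family signals, was the 1 of 20 TGF-β pathway genes, with a negative difference of -0.49 ± 0.16 (1.68% of all genes in this direction).

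The Na,K-ATPase and cation transport list held beta subunit, regulator and other ion transport genes, while the alpha subunit genes, whose product digoxin binds, were not analysed here. It had no member at an unadjusted p under 0.05 for the difference among 13 measured, with a list median of -0.01 and a range from -0.26 to 0.34. Their median digoxin effect was 0.00 in wildtype cells and 0.01 in deficient cells. No member passed that threshold either among 21 glycolysis and hypoxia, 20 ribosome biogenesis, 19 immediate early, 19 endoplasmic reticulum chaperone, 17 p53 target, 16 interleukin 6 and STAT3, 12 Th2 and 7 S100 genes. Of 13 heat shock genes, Hspa1a and Hspa1b did, both negative, against 1.68% of all genes in this direction, with a list median of -0.11.

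**Figure D4:**
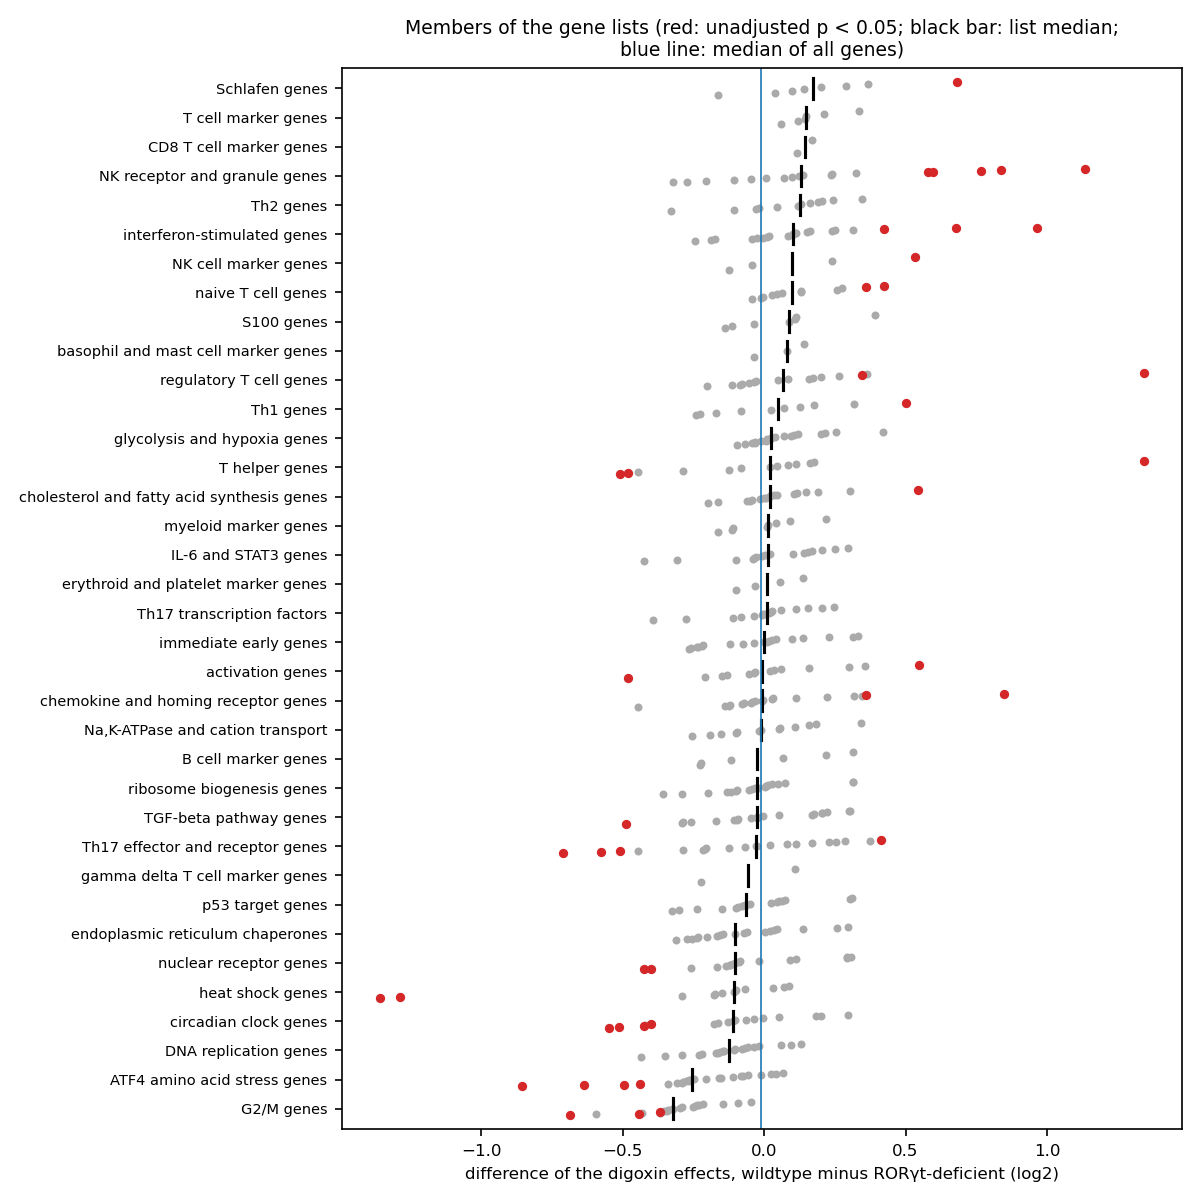
Difference of the digoxin effects (wildtype minus RORγt-deficient, log2, horizontal) for every measured member of the 36 gene lists, 1 list per row; red points have an unadjusted p under 0.05, black bars are list medians and the blue line is the median of all genes. The G2/M and ATF4 lists have the lowest medians, -0.32 and -0.26, and no adjusted p of a single gene was under 0.05.

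Markers of the cells in culture were set beside these results. All 6 measured T cell markers had a lowest array level of 8 or above before centring. Their differences were all positive, from 0.06 to 0.33, where 47.1% of all genes were positive, with 0 of 6 at an unadjusted p under 0.05. The CD8 T cell markers Cd8a and Cd8b1 had differences of 0.17 and 0.12, neither at an unadjusted p under 0.05. Other probe sets of Cd8a gave from -0.25 to 0.21. In DMSO the genotype gap was 0.22 for Cd8a and 0.23 for Cd8b1. The lowest level of both markers was between 4 and 8. The 4 measured NK cell markers were all between 2 and 4, the dimmest range. Of these only Eomes had an unadjusted p under 0.05, with a difference of 0.53 ± 0.18 that its other probe set did not share (-0.03). Of 6 B cell markers 4, and of 8 myeloid markers 2, were in the dimmest range, none was at 8 or above, and none had an unadjusted p under 0.05 for the difference. The summed level of a marker list cannot be formed from centred values, and the part of other cells in the results was not tested.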

How the data were processed

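Total RNA of 8 mouse T cell samples was measured on GeneChip Mouse Genome 430 2.0 arrays. The authors' table holds log2 values of 45101 probe sets, deposited after RMA per the submitters' processing notes, and the series' design text names GeneSpring GX 11.5. For every probe set the values of wildtype DMSO add up to 0 within 1e-06, so the table was centred on that group, a step that no label records. RMA applies quantile normalisation before summary, which assumes similar distributions on all arrays. Ranges for the lowest level before centring were recovered from the binary precision of the numbers, and 5660 of 18193 genes lay between 2 and 4, 8740 between 4 and 8 and 3793 at 8 or above. On 5000 simulated probe sets this gave the right range for 99.3%. The number of arrays limits the precision.

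Of the probe sets, 64 were controls, 932 had several gene symbols and were not named, and 34945 had 1 symbol, of which 34741 matched the GRCm38.p6 RefSeq table. For 9010 genes with more than 1 probe set, the probe set was taken by suffix and then identifier. The 4 group means were fitted to all 8 arrays with limma 3.58.1 in R 4.3.3 (4 residual and 5.8 prior degrees of freedom), with two-sided tests, Benjamini-Hochberg adjustment over all genes and calls at an adjusted p under 0.05. The fit was tested on simulated data. Intervals cover 95% and n is 2 arrays per group.

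Named genes were the 12 with the smallest p for the difference in each direction, up to 25 called for digoxin in each genotype, the T helper list, and up to 4 members of each list by p. The gene lists and the contrast were chosen with earlier results of these data known. Promoter sequences are from RefSeq. Alternatives were all probe sets, median centring, quantile normalisation of the centred values and a lowest level of 4 or above. Further ones were array weights, robust eBayes, a replicate block and leaving out each array. For the genotype comparisons and the list medians all alternatives were added after seeing the data.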

Additional observations from a re-analysis of the deposited data

Results flagged for a closer look

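Probe sets that no single gene symbol names were left out of the comparisons and tested apart. Of these 10092 probe sets, limma called 5 for digoxin in wildtype cells, 0 for digoxin in deficient cells (333 at an unadjusted p under 0.05) and 0 for the difference of the digoxin effects (255 at an unadjusted p under 0.05). Their genes were not named.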

How the results depend on the processing

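The difference of the digoxin effects kept its sign in all 477 values of the 32 genes named for it or for a digoxin call, under up to 15 alternatives each. Most of these genes were chosen for a small p of this same difference, and the alternatives reuse the same arrays. The choice thus favoured a kept sign, which is no independent check of the difference. The count of genes called for the difference was 1 after quantile normalisation, 1 with array weights and 0 to 1 when each array was left out. For digoxin in wildtype cells the count was 4 after quantile normalisation, 35 with array weights and 6 to 23 without each array, and for digoxin in deficient cells 0, 1 and 1 to 1. For RORγt deficiency in DMSO it was 3 after quantile normalisation and 17 to 188 without each array, and under digoxin 0 and 0 to 2. Quantile normalisation acted on the centred values, whose SD over genes was 0.091 in wildtype DMSO and 0.172 to 0.279 on the other arrays. Its counts are thus no plain check of the processing. The causes were not tested. With the replicate number as a block the counts were 0 for the difference, 25 and 1 for digoxin in wildtype and deficient cells, and 181 and 2 for RORγt deficiency in DMSO and under digoxin. The titles share numbers without saying what they pair. Deviations of same-numbered arrays correlated at 0.325 to 0.454 among the other 3 groups and at -0.242 to -0.136 with wildtype DMSO. At another probe set of Igfbp7 the difference was 0.20 in place of -0.86. Of 19 further probe sets of the named genes, 16 had the same sign. Dim genes and 2 arrays per group limit what could be detected.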
